A study of Homo sapiens with 16 samples.

Results

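The 600 transcripts with the highest pausing index in untreated cells are described here, out of 6009 that could be ranked and 10304 listed in all. PRO-seq, which labels nascent RNA in isolated nuclei and maps engaged RNA polymerase, had been counted by the authors in a promoter-proximal region and in the gene body of each transcript. The pausing index was the promoter-proximal read count divided by the gene-body reads per kb. It was computed from the summed counts of 2 untreated libraries, for protein-coding RefSeq transcripts of 6 to 150 kb with at least 100 promoter-proximal reads. The transcripts were selected on this index, as the highest 10%, so their values in those 2 libraries are given only as a description: the index ran from 15.2 to 718 with a median of 24.8 in the most paused 600, against a median of 3.6 over all ranked transcripts and 0.696 in the 600 least paused. Just inside the limit were AKAP8L at 15.24 and RRM2B and KIAA1033 at 15.20, and just outside it were LOH12CR1 and STRADB at 15.18 and MANEA at 15.17. No symbol occurred more than once among the 600.

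After initiation, RNA polymerase II often halts shortly downstream of the start site, held by the factors DSIF and NELF, and is released into the gene body when the kinase P-TEFb phosphorylates them and the polymerase. A high index therefore marks genes with much engaged polymerase near the start relative to the body. In blood cells and other tissues, strong pausing is known from signal-response and heat shock genes, among others, where release is a regulated step.

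All libraries used here came from a derivative of Kasumi-1, a human line from acute myeloid leukaemia known for its RUNX1-RUNX1T1 fusion, in which both SMARCA5 alleles carried the FKBP12F36V tag. SMARCA5 is the ATPase of the ISWI nucleosome-spacing remodellers, and the tag lets the small molecule dTAG-47 direct the protein to degradation. Treated cells had received 500 nM dTAG-47 for 2, 6 or 24 h, and untreated cells of the same tagged line served as 0 h. Parental cells were not analysed here, so tag and line are shared by every group, and whether the line is 1 clone is not given in the sources used here. Each count column carries 1 of 3 number codes, called runs below, although no source says what a code marks. Both libraries behind the ranking came from 1 run, the ranking run. Changes were tested in the 11 libraries of the other 2 runs: 3 at 0 h, 2 at 2 h, 4 at 6 h and 2 at 24 h. The larger run held 2 of these libraries, A and B, at each time, and the smaller run held 1 library at 0 h and 2 at 6 h. Replicates are named biological by the submitters, but separate cultures are not stated, so p-values measure only the spread between these libraries, which may be technical.

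The 11 libraries held 11182894 to 26130746 gene-body reads and 1667950 to 3962548 promoter-proximal reads. Of the 12 Kasumi-1 marker symbols, 11 were listed, all but RUNX1T1, the partner in the fusion. KIT led with a median of 4343 gene-body reads in scaled counts (CPM, relative to library size) in untreated libraries. The lowest medians were those of CD33 at 30.4 CPM and CEBPA at 6.02 CPM. Only EPCAM of 8 markers of other lineages was listed, at a median of 27.2 CPM, which lay above CEBPA. EPCAM gene-body reads fell by 0.60, 0.46 and 0.58 on the log2 scale at 2, 6 and 24 h, and any part of this in the results below was not tested. SMARCA5 gene-body reads, which do not report on the protein, were 84.9 to 108 CPM in treated libraries and 99.0 to 103 CPM in untreated ones. One library stood apart: 6 h A of the smaller run gave the most paused transcripts 19.5% of its promoter-proximal reads, against 24.7 to 26.5% in the other 10. Counts below are therefore also given without it where they moved.

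Promoter sequences of the transcripts that the results below turn on are shown first, to let the starts be compared by eye. They are RefSeq sequences on build GRCh38.p14, 120 bases long, 5′ to 3′ on the gene's own strand, and end with the annotated first transcribed base, which is counted as 0. Capitals mark matches, overlapping ones included, on either strand, to 11 motifs: the TATA box TATAAA, the GC box GGGCGG, the CCAAT box CCAAT, the ETS motif CCGGAAG, the E-box CACGTG, the cAMP response element TGACGTC, the NRF1 motif GCATGCG, the RUNX motif TGTGGT, the AP-1 motif TGANTCA, the YY1 motif AAGATGG and GAGAG, known from the GAGA factor of Drosophila. Whether these starts match the hg19 transcripts counted by the authors was not checked. All are among the most paused. The first 3 are shown for their rank among the 10 highest by index, and the others for changes after treatment. UBE2D1 gene-body reads also fell at 24 h (log2 change -0.39, edgeR adjusted p 0.0325). That call was kept in 7 of 11 fits that each left out 1 library and was not made without the run term.
SLC16A10: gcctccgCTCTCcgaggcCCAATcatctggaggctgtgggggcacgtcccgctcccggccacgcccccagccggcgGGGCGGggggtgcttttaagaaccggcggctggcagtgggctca
UBE2D1: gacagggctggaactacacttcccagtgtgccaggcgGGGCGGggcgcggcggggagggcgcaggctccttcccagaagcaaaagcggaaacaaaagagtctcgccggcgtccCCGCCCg
GIN1: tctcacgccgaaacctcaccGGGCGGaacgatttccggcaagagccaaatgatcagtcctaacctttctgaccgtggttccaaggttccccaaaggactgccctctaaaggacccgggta
EZR: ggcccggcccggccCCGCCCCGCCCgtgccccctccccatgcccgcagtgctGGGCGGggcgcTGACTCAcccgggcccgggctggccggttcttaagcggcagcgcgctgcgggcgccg
STRN3: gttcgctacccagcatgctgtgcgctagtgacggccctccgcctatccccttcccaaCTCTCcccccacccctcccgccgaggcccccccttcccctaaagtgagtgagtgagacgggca
ZNF224: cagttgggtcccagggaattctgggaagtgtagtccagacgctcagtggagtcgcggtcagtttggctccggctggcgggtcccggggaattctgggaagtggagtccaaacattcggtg
ABCC5: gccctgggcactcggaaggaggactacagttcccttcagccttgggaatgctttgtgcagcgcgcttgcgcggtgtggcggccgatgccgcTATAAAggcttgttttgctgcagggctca
PPAP2B: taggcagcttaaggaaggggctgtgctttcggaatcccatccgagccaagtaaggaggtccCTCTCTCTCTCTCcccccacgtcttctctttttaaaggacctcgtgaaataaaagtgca
PAN2: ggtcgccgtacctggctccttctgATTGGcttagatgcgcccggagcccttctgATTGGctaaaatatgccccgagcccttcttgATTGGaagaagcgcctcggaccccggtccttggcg
MED18: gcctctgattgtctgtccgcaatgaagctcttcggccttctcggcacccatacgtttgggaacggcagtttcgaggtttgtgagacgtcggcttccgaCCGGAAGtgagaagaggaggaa

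The windows lie at chr6:111087384-111087503 on the plus strand for SLC16A10, chr10:58334887-58335006 plus for UBE2D1, chr5:103120138-103120257 minus for GIN1, chr6:158818235-158818354 minus for EZR, chr14:31026379-31026498 minus for STRN3 and chr19:44094242-44094361 plus for ZNF224. Those of ABCC5, PPAP2B (now PLPP3), PAN2 and MED18 lie at chr3:184017884-184018003 minus, chr1:56579563-56579682 minus, chr12:56334000-56334119 minus and chr1:28328921-28329040 plus. PAN2 holds 3 CCAAT matches, at -95, -65 and -34, ABCC5 holds a TATA match at -28, EZR holds GC boxes at -105, -100 and -67, the first 2 overlapping, beside an AP-1 match at -56, and ZNF224 holds none of the 11 motifs in these 120 bases.

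A RefSeq promoter was found for 525 of the 600 most paused transcripts, for 512 of the 600 least paused and for 5070 of all ranked. In the window from 250 bases before to 50 after the start, the CCAAT box occurred in 43.6% of the most paused, against 34.4% of the least paused, 39.3% of the ranked and 34.6% of all 35116 promoters in the table. The ETS motif occurred in 25.7% of the most paused, against 19.1%, 24.9% and 10.3% of the same 3 sets in the same order. For the cAMP response element the shares were 8.57% against 4.88%, 6.37% and 3.45%, and for the NRF1 motif 9.33% against 5.27%, 7.93% and 3.91%. GC boxes were common in each ranked set, at 75% of the most paused, 71.9% of the least paused and 72.2% of the ranked, against 45% of the table. TATA boxes were scarce, at 4.95% against 4.30%, 4.44% and 11.5%. The E-box, at 9.52% against 12.9%, 11.3% and 7.26%, was less frequent in the most paused than in the least paused. So was the RUNX motif, at 8.76% against 9.77%, 9.07% and 13.1%. The YY1 motif occurred in 8.95% against 8.59%, 9.61% and 5.84%, and the AP-1 motif in 4.19% against 3.71%, 3.63% and 7.71%. GAGAG was common in every set, at 63.2% against 59.2%, 61.6% and 61.6%. The 250 bases before the start were 62.8% GC at the median in the most paused, 66.8% in the least paused and 64.8% in the ranked. Another gene started on the opposite strand within 1 kb of 41.5% of the most paused starts, against 33.6% of the least paused, 35.4% of the ranked and 22.6% of the table. Whether the authors counted by strand is not given in the sources used here, and reads of such a neighbour could not be told apart from those of the transcript. A motif match is a description of these letters and not evidence of binding.

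High pausing was largely kept in the libraries that the ranking did not use. In the 3 untreated libraries of the larger and smaller runs, 451, 446 and 445 of the 600 transcripts were again in the top 10% when the index was recomputed per library, and 368 were there in all 3. In treated libraries the number was 448 to 469 at 2 h, 359 to 473 at 6 h and 446 to 465 at 24 h, with the lowest in 6 h A of the smaller run and 431 to 473 in the other 3 libraries at 6 h. Of the 600, 258 were in the top 10% in every one of the 11 libraries, 465 in at least 6, and 38 in none.

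**Figure D1:**
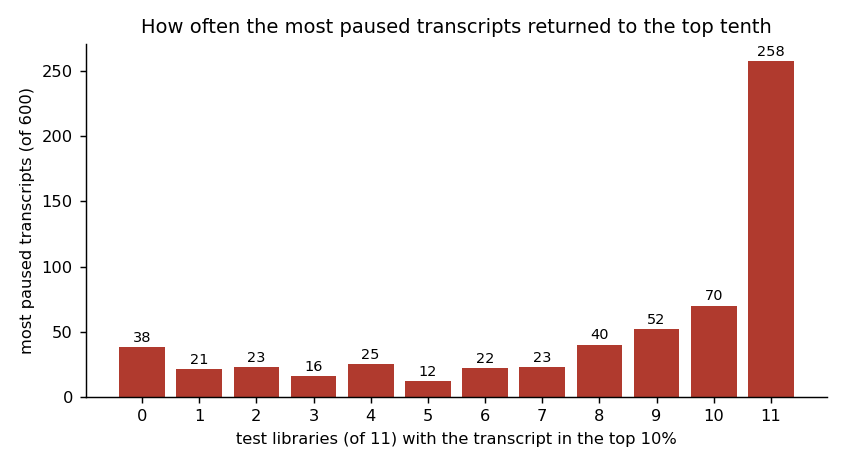
Number of libraries, out of the 11 of the larger and smaller runs (x axis), in which each of the 600 most paused transcripts was again in the top 10% by pausing index, with the count of transcripts on the y axis. The tallest bar is the 258 transcripts found there in all 11 libraries, and 38 transcripts were found there in none.

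The first 10 by index carry their polymerase near the start in every library. SLC16A10, which encodes an aromatic amino acid transporter (hg19 chr6:111408781-111544606, NM_018593), had the highest index, 718, and 470 to 1479 in the 3 untreated test libraries. Its promoter-proximal level was 3770, 2584 and 2131 CPM at 0 h, 3090 and 2650 CPM at 2 h, 2746, 3077, 596 and 1868 CPM at 6 h, and 3457 and 3166 CPM at 24 h, so that the groups overlapped and only 6 h A of the smaller run lay far below the rest. The other 9 were C2orf76 (310), the ubiquitin-conjugating enzyme gene UBE2D1 (234), C7orf31 (203), the histone gene HIST1H2BK (196), GIN1 (177), the mRNA export receptor gene NXF1 (173), the phosphatase gene DUSP19 (170), the Integrator subunit gene INTS2 (167) and PXT1 (162), where the number is the index in the 2 libraries of the ranking. HIST1H2BK has near-identical copies in the genome, and its counts are uncertain. All 10 stayed in the top 10% in all 11 test libraries.

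Before any scaling, the index of these transcripts was lower after treatment in both runs, and so was the median over all ranked transcripts. In the larger run the median index of the most paused was 42.3 and 43.7 at 0 h, 20.8 and 29.8 at 2 h, 28.2 and 31.6 at 6 h and 29.8 and 32.6 at 24 h. In the smaller run it was 18.4 and 22.1 at 6 h, against 26.4 at 0 h. Over all ranked transcripts the medians in the larger run were 6.93 and 7.43 at 0 h, 3.35 and 4.98 at 2 h, 4.78 and 4.93 at 6 h and 4.65 and 5.37 at 24 h, and in the smaller run 3.92 and 3.74 at 6 h, against 4.38 at 0 h. The least paused did not follow in every library: in the smaller run their median was 0.911 and 0.822 at 6 h, against 0.889 at 0 h. The most paused median was 5.88 to 6.42 times the ranked median in 10 of the 11 libraries and 4.70 times in 6 h A of the smaller run. The ranking run, whose treated library was not tested, went the other way, with a median of 36.7 for the most paused in its 2 h library against 20.9 and 29.3 in the 2 untreated libraries of the ranking.

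**Figure D2:**
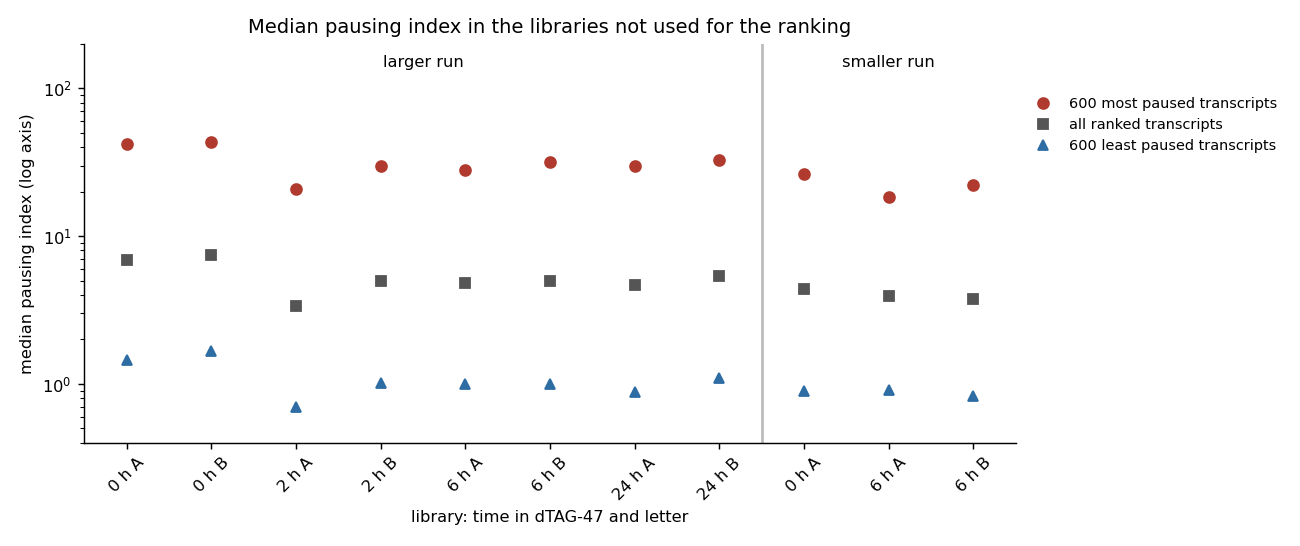
Median pausing index (promoter-proximal reads divided by gene-body reads per kb, log axis) in each library of the larger and smaller runs, ordered by run and by hours of dTAG-47, for the 600 most paused, all ranked and the 600 least paused transcripts. In the larger run all 3 sets were highest in the untreated libraries, where the most paused stood at 42.3 and 43.7, and the most paused median stayed 5.88 to 6.42 times the ranked median.

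The same was seen in the totals. Promoter-proximal reads per 100 gene-body reads were 12.7 and 18.3 at 2 h, 17.3 and 18.4 at 6 h and 16.9 and 18.7 at 24 h in the larger run, against 24.6 and 25.9 at 0 h. With no spike-in used here, a change of this ratio over a whole library and a difference in library preparation cannot be told apart. The tests below scale each region by its own reads, which removes a shift of the promoter-proximal against the gene-body scale of -0.70, -0.39 and -0.44 on the log2 scale at 2, 6 and 24 h. They therefore ask which transcripts changed relative to the others.

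Gene bodies of the most paused transcripts rose more often than they fell. At 2 h, 88 rose and 55 fell (edgeR quasi-likelihood test, adjusted p under 0.05), where 24.8% of all 10304 transcripts tested were called, 11.5% rising and 13.3% falling, against 14.7% and 9.17% of the most paused. At 6 h, 156 rose and 90 fell, 26% and 15% of the 600, where 37.7% of all tested were called, 19.3% rising and 18.4% falling. At 24 h, 96 rose and 66 fell, 16% and 11%, where 29.7% of all tested were called, 15.4% rising and 14.3% falling. The shares called in either direction, 23.8%, 41% and 27%, were near those of all transcripts. All 600 passed the filter on low counts in both regions, so no transcript is left out of these counts. The times share their untreated libraries and are not independent. The median log2 change was 0.05, 0.07 and 0.03 at 2, 6 and 24 h, against 0.02, 0.02 and 0.01 over all transcripts and -0.03, -0.05 and -0.02 in the least paused. Without the run term, 36 at 2 h, 169 at 6 h and 88 at 24 h were called, where 568, 2340 and 1418 of all 10304 tested were. Of the 600, 3.83%, 17.8% and 9.83% rose and 2.17%, 10.3% and 4.83% fell in that fit. Of all tested, 2.33%, 11.7% and 7.47% rose and 3.18%, 11.1% and 6.29% fell. The fewest of the 600 with 1 library left out were 57 at 2 h (without 2 h B of the larger run) and 78 at 24 h (without 24 h A of the larger run). Without 6 h A of the smaller run, 189 were called at 2 h, 292 at 6 h and 218 at 24 h, rises and falls together. Shares of all transcripts in these leave-outs are not given here.

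The ranked transcripts were split by index into 10 groups, from the most paused, group 1, to the least paused, group 10. The share with rising gene bodies tended to be lower toward group 10. At 6 h it was 26% in group 1, 22.8% in group 2, 16.3% in group 5 and 11% in group 10, and the share that fell was 15%, 15%, 18.8% and 26.8% in the same groups. More rises than falls were not particular to group 1. Group 2 had 13% rising and 8.17% falling at 2 h, and 15.2% and 12.2% at 24 h. Group 10 had 7.39% and 18.4% at 2 h, and 10.5% and 18.4% at 24 h. The groups also differed in depth, with a median of 778 gene-body reads per library in group 1 and 1847 in group 10, and in length, with medians of 31.3 and 21.3 kb. The part of depth and length in this order was not tested. In the larger run the median log2 change at 6 h was 0.10 in group 1 and -0.07 in group 10, and in the smaller run it was 0.0017 and -0.04, where all transcripts had 0.01 and 0.02 in the 2 runs. So in the smaller run the most paused transcripts were not higher than all transcripts together, while the order between groups 1 and 10 had the same sign.

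**Figure D3:**
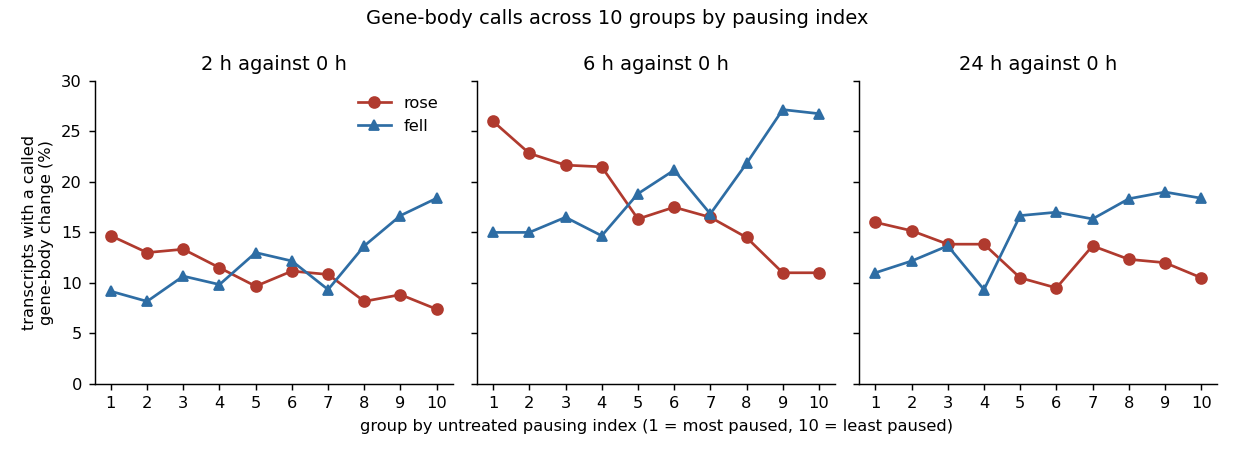
Share of transcripts whose gene-body reads rose or fell (edgeR, adjusted p under 0.05, y axis in percent) at 2, 6 and 24 h of dTAG-47 against 0 h, by group of the untreated pausing index on the x axis, with 600 transcripts in each group and 609 in group 10. At 6 h group 1 has 26% rising and 15% falling, and group 10 has 11% rising and 26.8% falling.

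Gene-body calls repeated over time in 79 of the 600: 54 rose at all 3 times (9%) and 25 fell at all 3 (4.17%), against 5.54% and 6.97% of all ranked and 3% and 10.2% of the least paused. ABCC5, which encodes an efflux pump for cyclic nucleotides, had the smallest adjusted p among those that rose. Its gene-body level was 31.8, 32.8 and 34.3 CPM at 0 h, 58.6 and 56.8 CPM at 2 h, 66.6, 64.5, 71.1 and 72.9 CPM at 6 h and 68.5 and 65.6 CPM at 24 h. Every treated library lay above every untreated one, and the log2 changes were 0.85, 1.04 and 1.07 (SE 0.07, 0.06 and 0.07; edgeR adjusted p 2.1e-05, 3.89e-07 and 2.53e-06). The gene-body calls for ABCC5 were kept whichever of the 11 libraries was left out, without the run term and with DESeq2.

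TK1, the cytosolic thymidine kinase gene, had 75, 77.7 and 84.8 CPM in gene bodies at 0 h, 122 and 130.4 CPM at 2 h, 130.2, 129, 161 and 146 CPM at 6 h and 126 and 118.8 CPM at 24 h. It too separated treated from untreated libraries at each time, with log2 changes of 0.75, 0.80 and 0.70. The gene bodies of PAN2, the catalytic subunit of a poly(A) nuclease, rose by 0.40, 0.78 and 0.88, those of ZC3H6 by 0.28, 0.79 and 0.74, and those of LPXN, the paxillin relative leupaxin, by 0.36, 0.68 and 1.04 on the log2 scale. LPXN stood at 33.9, 33.1 and 34.6 CPM at 0 h, 43.1 and 44.5 CPM at 2 h, 57.5, 53.9, 49.7 and 55.5 CPM at 6 h and 68.5 and 72.0 CPM at 24 h, a stepwise series in which no time overlapped the one before it. Other large rises in transcripts with low gene-body levels were those of the semaphorin gene SEMA6C (1.11 at 6 h), RABL5 (1.17 at 6 h), FBXO24 (1.31 at 24 h) and IFI6, an interferon-induced gene (1.44 at 24 h), all log2 changes.

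Among the falls, EZR, the gene of the membrane-to-actin linker ezrin, went down in both regions. Its gene-body level was 124, 125 and 115 CPM at 0 h, 78.5 and 83.7 CPM at 2 h, 89.6, 86.9, 83.7 and 77.6 CPM at 6 h and 87.2 and 78.2 CPM at 24 h, with log2 changes of -0.62, -0.50 and -0.59 (SE 0.07, 0.05 and 0.07; edgeR adjusted p 0.000145, 3.22e-05 and 9.14e-05). No treated library reached the untreated range. MST4, a kinase gene, fell by 0.38, 0.49 and 0.46 on the log2 scale, NMNAT3, an NAD synthesis gene, by 0.38, 0.27 and 0.24, and SKIV2L2, the gene of an RNA exosome helicase, by 0.25, 0.26 and 0.35. TRIM59 fell by 0.83, 0.98 and 1.04, ZNF607 by 0.69, 1.03 and 0.63 and SEMA3G by 0.74, 1.23 and 1.1.

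The largest fall of a gene body among the 600 came late. C7orf31, now SPMIP4, had 23.5, 23.8 and 25.5 CPM at 0 h, 21.5 and 21.1 CPM at 2 h, 12.1, 15.9, 14 and 15.1 CPM at 6 h and 5.69 and 8.24 CPM at 24 h. The 2 h value did not pass (log2 change -0.16, edgeR adjusted p 0.43), and the changes at 6 and 24 h were -0.78 and -1.77 (adjusted p 0.000339 and 2.28e-05). Its promoter-proximal reads fell as well at those times, by 1.03 and 1.36. The pausing ratio of C7orf31 gave no call at any time.

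Promoter-proximal reads gave few calls among the most paused transcripts. At 2 h, 11 rose and 10 fell (3.5% of 600, edgeR adjusted p under 0.05), where 4.26% of 9914 transcripts tested were called, 2.42% rising and 1.84% falling. At 6 h, 11 rose and 27 fell (6.33%), where 5.4% of all tested were called, 2.33% rising and 3.07% falling. At 24 h, 5 rose and 8 fell (2.17%), where 3.81% of all tested were called, 1.82% rising and 2% falling. These counts moved with single libraries and with the model. Without 6 h A of the smaller run, 42 rose and 32 fell at 2 h, 46 and 32 at 6 h and 45 and 27 at 24 h. Shares of all tested in the leave-outs are not given here, so these shifts cannot be called particular to the most paused. Without the run term 0, 2 and 0 of the 600 were called, where 0, 35 and 6 of all 9914 tested were. The fewest with 1 library of the larger run left out were 0 at 2 h (without 0 h A), 13 at 6 h (without 6 h A) and 0 at 24 h (without 24 h A). In the larger run alone, 44 rose and 20 fell at 6 h, 7.33% and 3.33% of the 600, where 4.81% and 4.78% of all tested did. The median log2 change at 6 h was 0.07 within the larger run and -0.18 within the smaller run, against -0.005 and 0.014 over all transcripts. With the gene-body scale used for both regions, 0 rose and 261 fell at 2 h, 1 and 105 at 6 h, and 1 and 60 at 24 h. The falls were 43.5%, 17.5% and 10% of the 600 at 2, 6 and 24 h, where 38.3%, 15.9% and 11.3% of all tested fell on that scale.

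Where promoter-proximal and gene-body reads were both called, they moved the same way with 1 exception. At 6 h the gene body rose in 8 of the 11 transcripts whose promoter-proximal reads rose, and fell in 19 of the 27 whose promoter-proximal reads fell. At 2 h this held for 1 of 11 rises and 6 of 10 falls, and at 24 h for 3 of 5 rises and 5 of 8 falls. The exception was PPAP2B at 24 h. Its promoter-proximal call at that time (edgeR adjusted p 0.0494) was kept in only 1 of the 11 fits that each left out 1 library. It was not made without the run term. Over all ranked transcripts the gene body moved the same way in 21.2% of the rises and 37.7% of the falls near the promoter at 2 h, in 55.4% and 56.4% at 6 h, and in 41% and 57.3% at 24 h. It moved the opposite way in 6 rises and 2 falls at 2 h, 6 and 9 at 6 h, and 4 and 5 at 24 h.

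**Figure D4:**
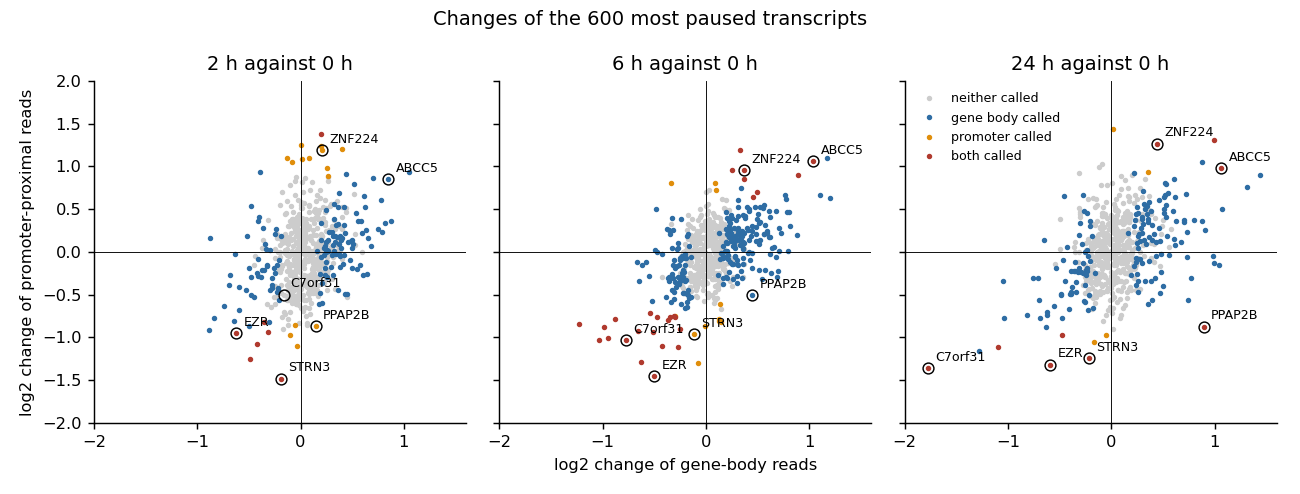
Log2 change of promoter-proximal reads (y axis) against log2 change of gene-body reads (x axis) for the 600 most paused transcripts at 2, 6 and 24 h against 0 h, colored by which region was called (edgeR, adjusted p under 0.05), with 6 genes of the text circled. EZR lies at the lower left at every time, ABCC5 at the upper right, and PPAP2B lies at the lower right at 24 h, with changes of 0.90 in the gene body and -0.87 near the promoter.

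Promoter-proximal reads rose at all 3 times in ZNF224 and SLC35D2 and fell at all 3 in EZR, STRN3 and RNF13. For EZR the promoter-proximal level was 278, 234 and 378 CPM at 0 h, 147 and 148 CPM at 2 h, 109.8, 121, 93.0 and 112 CPM at 6 h and 121 and 108 CPM at 24 h. Treated and untreated libraries did not overlap, and the log2 changes were -0.95, -1.46 and -1.32 (SE 0.24, 0.18 and 0.24; edgeR adjusted p 0.0324, 0.000586 and 0.00715). The 6 h call for EZR was kept with any of the 11 libraries left out and without the run term. The 2 h call was lost in 6 of the 11 leave-outs.

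STRN3, which encodes a regulatory subunit of the phosphatase PP2A, shows how the runs differ in level. Its promoter-proximal reads in the larger run were 583 and 696 CPM at 0 h, 214 and 243 CPM at 2 h, 313 and 343 CPM at 6 h and 245 and 295 CPM at 24 h. In the smaller run they were 53.1 and 98.1 CPM at 6 h, against 147 CPM at 0 h. Treated libraries were lower than untreated ones within each run and overlapped across runs. The log2 changes were -1.48, -0.96 and -1.24 (SE 0.26, 0.20 and 0.26; edgeR adjusted p 0.0118, 0.0111 and 0.0145), and none of these calls was made without the run term. RNF13, an E3 ubiquitin ligase gene, fell by 1.25, 1.12 and 1.06 on the log2 scale.

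ZNF224, a KRAB zinc finger gene, rose near the promoter, with 134 and 105 CPM at 0 h, 311 and 290.2 CPM at 2 h, 244 and 311 CPM at 6 h and 355 and 279.9 CPM at 24 h in the larger run. In the smaller run it had 316 and 447 CPM at 6 h, against 252 CPM at 0 h. The log2 changes were 1.19, 0.96 and 1.27 (SE 0.25, 0.21 and 0.25; edgeR adjusted p 0.0181, 0.0125 and 0.0115). On the gene-body scale used for both regions, these 3 calls were not made. SLC35D2, a nucleotide sugar transporter gene, rose by 1.24, 1.19 and 1.44, with low untreated levels of 16.4 to 28.7 CPM.

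A smaller group changed at 1 or 2 times. ZNF573, a zinc finger gene, had 90.2 and 74.0 CPM near the promoter at 2 h, 63.0, 68.0, 78.3 and 90.2 CPM at 6 h and 121 and 132 CPM at 24 h, against 145, 175 and 210.1 CPM at 0 h. It fell at 2 and 6 h, with log2 changes of -0.97 and -1.30, and was not called at 24 h, where the change was -0.34 (edgeR adjusted p 0.355). CHEK2, the gene of a DNA damage checkpoint kinase, rose by 1.38 at 2 h and 0.95 at 6 h. The CHEK2 levels in the smaller run, 609.8 and 909.6 CPM at 6 h against 402 CPM at 0 h, lay above all of those in the larger run, 87.3 to 363 CPM.

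**Figure D5:**
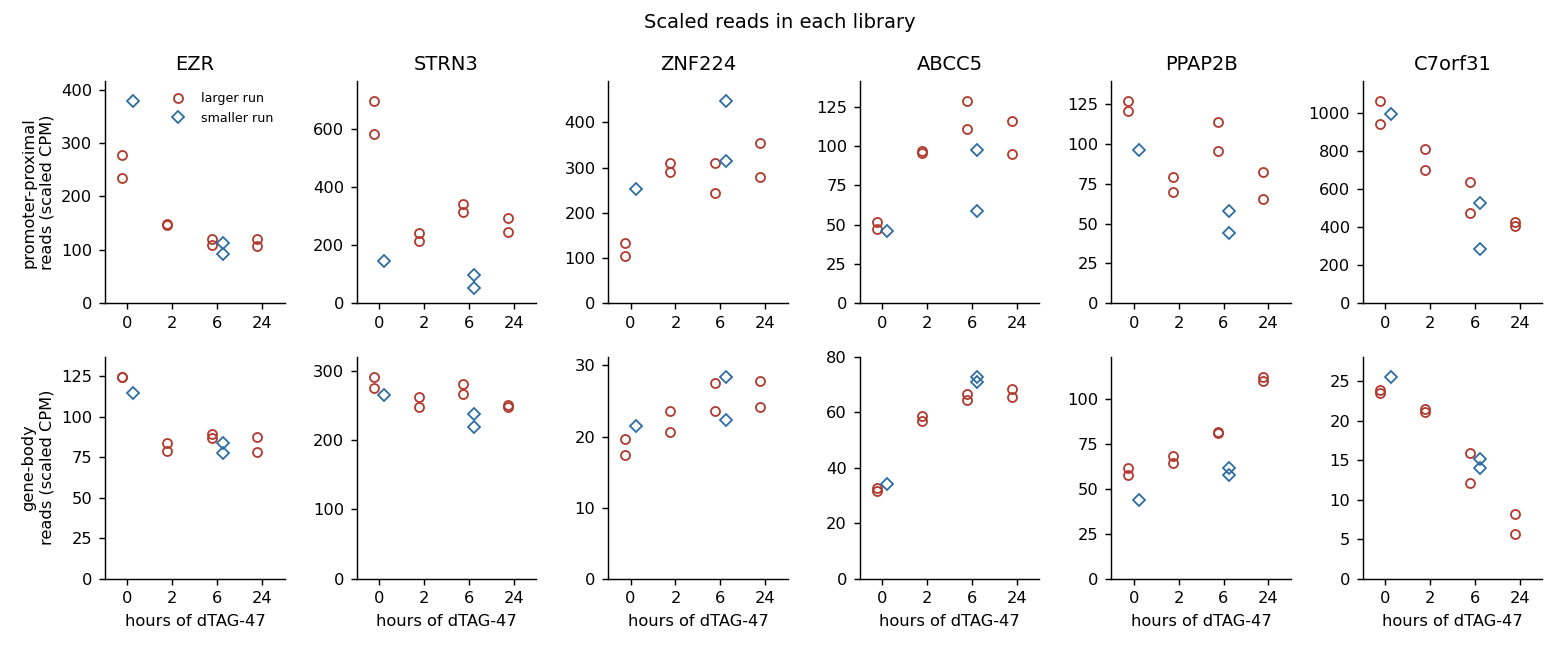
Scaled promoter-proximal reads (top row) and gene-body reads (bottom row), in CPM, of 6 of the most paused transcripts in each library against hours of dTAG-47, with circles for the larger run and diamonds for the smaller run. ABCC5 gene bodies lie at 31.8 to 34.3 CPM without treatment and at 56.8 to 72.9 CPM with it, and STRN3 near the promoter lies lower in the smaller run than in the larger run at 0 h and 6 h.

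The pausing ratio was tested as the log2 promoter-proximal minus the log2 gene-body CPM of each library. In limma with adjusted p under 0.05, 5 of the most paused rose and 4 fell at 2 h (1.5%), where 2.01% of 9914 transcripts tested were called, 1.08% rising and 0.928% falling. At 6 h, 1 rose and 13 fell (2.33%), where 1.58% of all tested were called, 0.676% rising and 0.908% falling. At 24 h, 2 rose and 7 fell (1.5%), where 2.01% of all tested were called, 0.726% rising and 1.28% falling. At unadjusted p under 0.05 there were 95, 95 and 83 of the 600 (15.8%, 15.8% and 13.8%), where 21%, 17.1% and 18.1% of all tested were under it. The excess of falls at 6 h was not seen in the larger run alone, where 10 rose and 10 fell, 1.67% each, and 1.91% of all tested rose and 2.28% fell. It was smaller without 6 h A of the smaller run, where 11 rose and 18 fell. Shares of all tested in that leave-out are not given here. Without the run term 0 of the 600 and 0 of all 9914 tested were called at any time. Leaving out 1 library of the larger run left 0 of the 600 at 2 h and 1 at 6 h (without 0 h A) and 0 at 24 h (without 24 h A). On the gene-body scale for both regions, 308, 111 and 62 fell and 0, 1 and 0 rose. The falls were 51.3%, 18.5% and 10.3% of the 600, where 41.8%, 13% and 12% of all tested fell on that scale.

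PPAP2B and STRN3 were called lower in the pausing ratio at all 3 times. In PPAP2B, which encodes a lipid phosphate phosphatase, promoter-proximal reads in the larger run were 127 and 120.5 CPM at 0 h, 79.2 and 70.1 CPM at 2 h, 95.7 and 114 CPM at 6 h and 65.5 and 82.5 CPM at 24 h, while gene-body reads were 61.3 and 57.7, 64.2 and 68.0, 81.0 and 81.6, and 112 and 109.9 CPM at the same times. In the smaller run the promoter-proximal level was 44.4 and 58.0 CPM at 6 h, against 96.2 CPM at 0 h, and the gene-body level was 57.3 and 61.4 CPM, against 43.5 CPM. So the 2 regions moved apart in both runs. The ratio changed by -1.01, -0.96 and -1.78 on the log2 scale (SE 0.25, 0.20 and 0.25; limma adjusted p 0.0434, 0.0235 and 0.00604), and these calls were kept in 5, 6 and 10 of the 11 leave-outs. The ratio calls of STRN3 were kept in 7, 4 and 3 of the 11. Relative falls at 24 h were also called for the Mediator subunit gene MED18 (-1.31) and LPXN (-1.19), whose gene bodies rose by 0.74 and 1.04 while their promoter-proximal changes, -0.56 and -0.16, did not pass.

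Rises of the ratio were called at 2 h for ZNF34 (1.28), the TFIIA subunit gene GTF2A2 (1.23), CHEK2 (1.18), ENPP4 (1.16) and ZNF224 (0.995), and at 6 h for BCL6 (1.16), a transcriptional repressor gene. The calls at 2 h were kept in 5, 6, 5, 6 and 4 of the 11 leave-outs, in the order named. None of these calls at 2 h was made without the run term or on the gene-body scale for both regions. BCL6 had 110.3, 126, 108 and 162 CPM near the promoter at 6 h, against 74.9, 53.5 and 81.6 CPM at 0 h. Its gene body had 21.5 and 17.8 CPM at 6 h in the larger run, against 29.9 and 33.2 CPM at 0 h. In the smaller run it was not lower, with 25.5 and 21.4 CPM against 21.2 CPM, and the gene-body change at 6 h was not called (edgeR adjusted p 0.118). The ratio call of BCL6 was kept in 6 of the 11 leave-outs and was not made without the run term. GTF2A2 near the promoter had 476 and 356 CPM at 2 h, against 181 and 167 CPM at 0 h in the larger run and 731 CPM at 0 h in the smaller run, so its call rests on the comparison within the larger run.

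Signal-response and stress genes were part of the group in small numbers. Of 11 ranked genes in a list of immediate early and signalling genes, FOSL2, NR4A2 and SPRY1 were among the most paused, and none of the 11 was among the least paused. NR4A2, an orphan nuclear receptor gene, had gene-body levels of 4.01, 2.88 and 3.61 CPM at 0 h, 6.74 and 7.39 CPM at 2 h, 10.1, 8.77, 6.81 and 6.82 CPM at 6 h and 8.98 and 7.24 CPM at 24 h. Each treated library lay above the untreated ones, with log2 changes of 0.88, 1.21 and 1.08 (edgeR adjusted p 0.00953, 0.000187 and 0.00229), and its promoter-proximal reads gave no call. FOSL2, an AP-1 subunit gene, fell in the gene body by 0.68 at 2 h and 0.42 at 6 h and was not called at 24 h, where the change was -0.06. SPRY1, the gene of an inhibitor of receptor tyrosine kinase signalling, fell by 0.89, 0.63 and 0.81 in the gene body, where the untreated levels were 7.79 to 9.59 CPM, and none of these 3 calls was made without the run term. Its promoter-proximal reads were called lower at 6 h only (log2 change -1.28, edgeR adjusted p 0.0144). That call was kept in 10 of the 11 leave-outs and was not made without the run term.

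Heat shock genes among the most paused were DNAJB4, HSPA4L and HSPA5, of 18 ranked in the list, with 4 of the 18 among the least paused. HSPA4L, an HSP110-family chaperone gene, had gene-body levels of 46.5, 49.2 and 50.1 CPM at 0 h, 35.1 and 32.0 CPM at 2 h, 32.8, 34.2, 29.5 and 36.4 CPM at 6 h and 22.1 and 24.7 CPM at 24 h, which put every treated library below the untreated ones. The log2 changes were -0.53, -0.55 and -1.05. DNAJB4 rose by 0.36 at 6 h, and HSPA5, the gene of the endoplasmic reticulum chaperone BiP, had changes of 0.12, 0.09 and -0.19, none of them called. DNAJA4, a further co-chaperone gene among the most paused, fell by 0.94 at 6 h and 1.28 at 24 h.

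Of 35 ranked genes in the list of pausing and elongation factors, 5 were most paused: CTR9 and LEO1, which encode subunits of the PAF1 complex, ELL, an elongation factor gene, and INTS3 and INTS6, of the Integrator. Only INTS3 changed, with a gene-body rise of 0.20 at 6 h. Over the 42 listed genes of that list, 3 rose and 3 fell in the gene body at 2 h, 3 and 5 at 6 h and 2 and 3 at 24 h. Of all 10304 transcripts tested, 11.5% rose and 13.3% fell at 2 h, 19.3% and 18.4% at 6 h, and 15.4% and 14.3% at 24 h. PAF1 itself, too short to be ranked, rose by 0.76, 0.66 and 0.68 in the gene body.

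Other lists reached the group through 1 or 2 genes or not at all. The sterol synthesis gene NSDHL, 1 of 19 ranked, rose in the gene body by 0.82 at 2 h and had changes of 0.19 and -0.04 at 6 and 24 h that were not called. CLK4, a splicing-factor kinase gene and 1 of 34 ranked RNA processing genes, fell by 0.41, 0.54 and 0.62. Of 36 ranked mitosis genes, CCNB2 gave no call and KIF11 rose by 0.25 at 24 h. None of 15 ranked haematopoietic transcription factor transcripts and none of 26 ranked chromatin remodeller genes was most paused, while 6 and 7 of them were least paused. Zinc finger symbols starting with ZNF made up 6% of the most paused, 3% of the least paused and 4.49% of the ranked, and symbols of mitochondrial ribosome and NADH dehydrogenase subunits (MRPL, MRPS, NDUF) made up 2.17%, 0.833% and 1.16%.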

How the data were processed

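Nascent RNA had been measured by PRO-seq. Bowtie2 2.2.2, DESeq, DESeq2, HOMER, SAMtools and Trimmomatic 0.32 are listed with build hg19 in the submitters' processing notes. The authors deposited raw read counts per transcript for a promoter-proximal region and for the gene body, per the file headers; the windows, the use of strand and the choice of transcripts are not stated in these sources. Another 84 columns of normalized values were not used, and the 2 parental samples were not analysed here.

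The members, gene lists, tests and rule for named genes were chosen with earlier results of these data known. Named genes were the 10 with the highest index, up to 3 of the largest rises and falls per readout and time among called members with a mean of at least 50 reads, up to 5 per direction called at all 3 times, those at the limit, and members of the lists.

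Counts of 11 libraries (1667950 to 3962548 promoter-proximal and 11182894 to 26130746 gene-body reads) were fitted over all transcripts with edgeR 4.0.16 quasi-likelihood tests in R 4.3.3, with time and run as terms, TMM scaling per region, filterByExpr and Benjamini-Hochberg adjustment at 0.05. The pausing ratio, log2 promoter-proximal minus log2 gene-body CPM with a prior count of 2, was tested in limma 3.58.1. CPM values are on this scale. Alternatives were no run term, the larger run alone, DESeq2 1.42.0 and its size factors, gene-body factors for both regions, no filter, other limits of the choice, a prior count of 0.5, a threshold of 0.01, each library left out and, added after seeing the data, a block for the letter of the column. The code was tested on simulated data.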

Additional observations from a re-analysis of the deposited data

Results flagged for a closer look

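In the gene body, 15 of the named transcripts differed between 24 h and 2 h when both times were set against each other in the edgeR fit, a contrast that uses only libraries of the larger run at those times. Levels were higher at 24 h than at 2 h for PPAP2B (adjusted p 5.85e-05), LPXN (adjusted p 0.000445), MYLIP (adjusted p 0.00197), PAN2 (adjusted p 0.0032), FOSL2 (adjusted p 0.00431), ZC3H6 (adjusted p 0.00622), IFI6 (adjusted p 0.0223), RNF13 (adjusted p 0.0264), KIF11 (adjusted p 0.0301) and FBXO24 (adjusted p 0.0499). They were lower at 24 h for C7orf31 (adjusted p 0.000158), NSDHL (adjusted p 0.00407), HSPA4L (adjusted p 0.0154), DNAJA4 (adjusted p 0.0171) and HSPA5 (adjusted p 0.0397). Over all most paused transcripts, 43 were higher and 14 lower at 24 h than at 2 h, 9.5% of 600, where 9.99% of all transcripts tested were called. In promoter-proximal reads (edgeR) and in the pausing ratio (limma) none of the 600 was called between these times, with 26 and 27 at an unadjusted p under 0.05 (4.33% and 4.5%). Of all 9914 tested, 1 and 0 were called and 634 and 614 (6.39% and 6.19%) were under that p.

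One library lay apart in 1 of 124 groups of 4 libraries tested: ZNF573 gene-body reads at 6 h were 43.6 CPM in 6 h A of the smaller run, against 49.6 to 50.5 CPM in the other 3, a gap of 0.863 of the whole range. Chance gives such a gap in about 1 of 20 groups.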

How the results depend on the processing

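Counts of the 600 called are given in the order 2, 6 and 24 h. Without the run term, promoter-proximal reads gave 0, 2 and 0, the pausing ratio 0, 0 and 0, and gene bodies 36 at 2 h and 88 at 24 h. Of all tested, that fit called 0, 35 and 6 near the promoter, 0, 0 and 0 in the ratio, and 568 and 1418 in gene bodies at 2 and 24 h. The larger run alone gave 113, 64 and 101 near the promoter, where 1682, 938 and 1430 of all 9781 tested were called. In the ratio it gave 67 and 63 at 2 and 24 h, where 1145 and 1008 of all 9780 tested were called. DESeq2 gave 34 and 30 near the promoter at 2 and 24 h, where 549 and 460 of all 9914 tested were called. With gene-body factors for both regions there were 261, 106 and 61 near the promoter and 308, 112 and 62 in the ratio, nearly all falls, where 3831, 1615 and 1155 and 4184, 1326 and 1220 of all 9914 tested were called. At a threshold of 0.01, 0, 10 and 1 were called near the promoter, 53, 156 and 90 in gene bodies, and 0, 1 and 1 in the ratio. Of all tested, 2, 132 and 58 passed it near the promoter, 1095, 2343 and 1583 in gene bodies, and 0, 31 and 18 in the ratio. Leaving out 1 library at a time gave 57 to 189, 189 to 292 and 78 to 218 in gene bodies, 0 to 74, 13 to 78 and 0 to 72 near the promoter, and 0 to 45, 1 to 29 and 0 to 36 in the ratio. Counts over all transcripts in these leave-outs are not given here. Each highest count came without 6 h A of the smaller run. The lowest in gene bodies came without 2 h B, 6 h B and 24 h A of the larger run. Near the promoter it came without 0 h A, 6 h A and 24 h A, and in the ratio without 0 h A, 0 h A and 24 h A, all of the larger run. The cause was not tested. Of the named calls, 67 of 102 in gene bodies, 5 of 38 near the promoter and 1 of 26 in the ratio were kept in all 11 leave-outs. None of the named calls changed sign in any alternative run, but the balance of rises and falls near the promoter did turn with single libraries and with the scale. The count columns carry a letter, not the replicate numbers of the labels, and no source says that a letter pairs libraries. A replicate block by letter within run, chosen after seeing the data, gave 115, 203 and 138 in gene bodies, 23, 37 and 11 near the promoter and 7, 8 and 7 in the ratio, and 143 of the 166 named calls passed. In the larger run the A minus B differences at 2 times correlated over transcripts at -0.15 to 0.33 near the promoter and -0.07 to 0.13 in gene bodies, so the letters did not pair the libraries throughout.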
